A study of Mus musculus with 23 samples.

Results

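Translation initiation factors were examined as a family in hindlimb muscle of mice. The members are the genes whose platform symbol begins with Eif and a digit from 1 to 6, without the eIF2 kinases (Eif2ak) and the eIF4E-binding repressors (Eif4ebp). This rule found 36 genes among the 12393 genes with a probe set of a single symbol, and 35 of them passed the filter on low signal that 9133 genes passed. By role, 3 members belong to eIF1 and eIF1A, 4 to eIF2, 4 to eIF2B, 11 to eIF3, 10 to eIF4, and 4 to eIF5 and eIF6. Eif1, Eif2s1, Eif2b3, Eif3g, Eif4g1, Eif4a3 and the Eif3j genes were not found by this rule and were not analysed here.

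All animals were female C57BL/6J mice aged 77 days, and each sample was 1 Affymetrix array of whole muscle. In the flight experiment, gastrocnemius was taken after 11 days and 19 hours of spaceflight (n = 4) or of ground housing in the flight hardware, the animal enclosure module (ground AEM, n = 4). In the calf experiment, calf muscle was taken from untreated mice (control, n = 5), after 12 days of hindlimb suspension (suspension, n = 5), or after the same suspension followed by 3.5 hours of reloading (reloaded, n = 5). Titles, source names and the series design give the groups used here. The samples' free-text descriptions have spaceflight and ground AEM the other way round, and under them each flight difference would change sign. Whether replicates are separate animals is not stated, so a p-value here measures only the spread between samples, which may be technical.

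Initiation factors bring a ribosome to the start codon of an mRNA. The eIF2 complex delivers the initiator tRNA and eIF2B recharges eIF2 with GTP; eIF3 is the scaffold on the small ribosomal subunit; the eIF4 group binds the cap and unwinds the mRNA leader. eIF1, eIF1A and eIF5 take part in start codon selection, and eIF5B joins the large subunit. In muscle, initiation is the step through which growth signals and stress signals are known to set the rate of protein synthesis, largely by phosphorylation of eIF2 and of the eIF4E-binding proteins, which an mRNA array does not measure.

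Median log2 signal lay between 6.15 and 6.23 on the 8 flight arrays and between 6.28 and 6.39 on the 15 calf arrays. The spread of each array (the distance from the 25th to the 75th percentile on the log2 scale) was 2.75 to 2.91 in the flight experiment and 2.21 to 2.46 in the calf experiment, so levels are not compared between the experiments. All 10 muscle fibre markers lay above the signal threshold on all 23 arrays. In bulk tissue, fewer cells of a type and less RNA per cell cannot be told apart.

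Initiation factor mRNAs differed little between groups, with Eif5 in spaceflight as the clearest difference. A gene counted as called where limma, a linear model with moderated variances, gave an adjusted p below 0.05 (Benjamini-Hochberg, over the 9133 tested genes). In the flight comparison 2 of 35 members were called, Eif5 and Eif3k, both higher in spaceflight and 0 lower. That is 5.71% of the members against 5.64% of all tested genes (3.18% counted in the higher direction), so the share of members called was close to the background. The 3 calf comparisons share groups: suspension against control, reloaded against suspension and reloaded against control. In them limma called 0 members, where it called 0.372%, 0.58% and 0.318% of all tested genes. The count of members at an unadjusted p under 0.05 was 4 in flight (Eif3b, Eif3k, Eif4b and Eif5), or 11.4%, beside 19.6% of all tested genes. It was 1 in suspension, 3 in reloaded against suspension and 1 in reloaded against control, beside 8.65%, 9.14% and 7.27% of all tested genes.

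**Figure D1:**
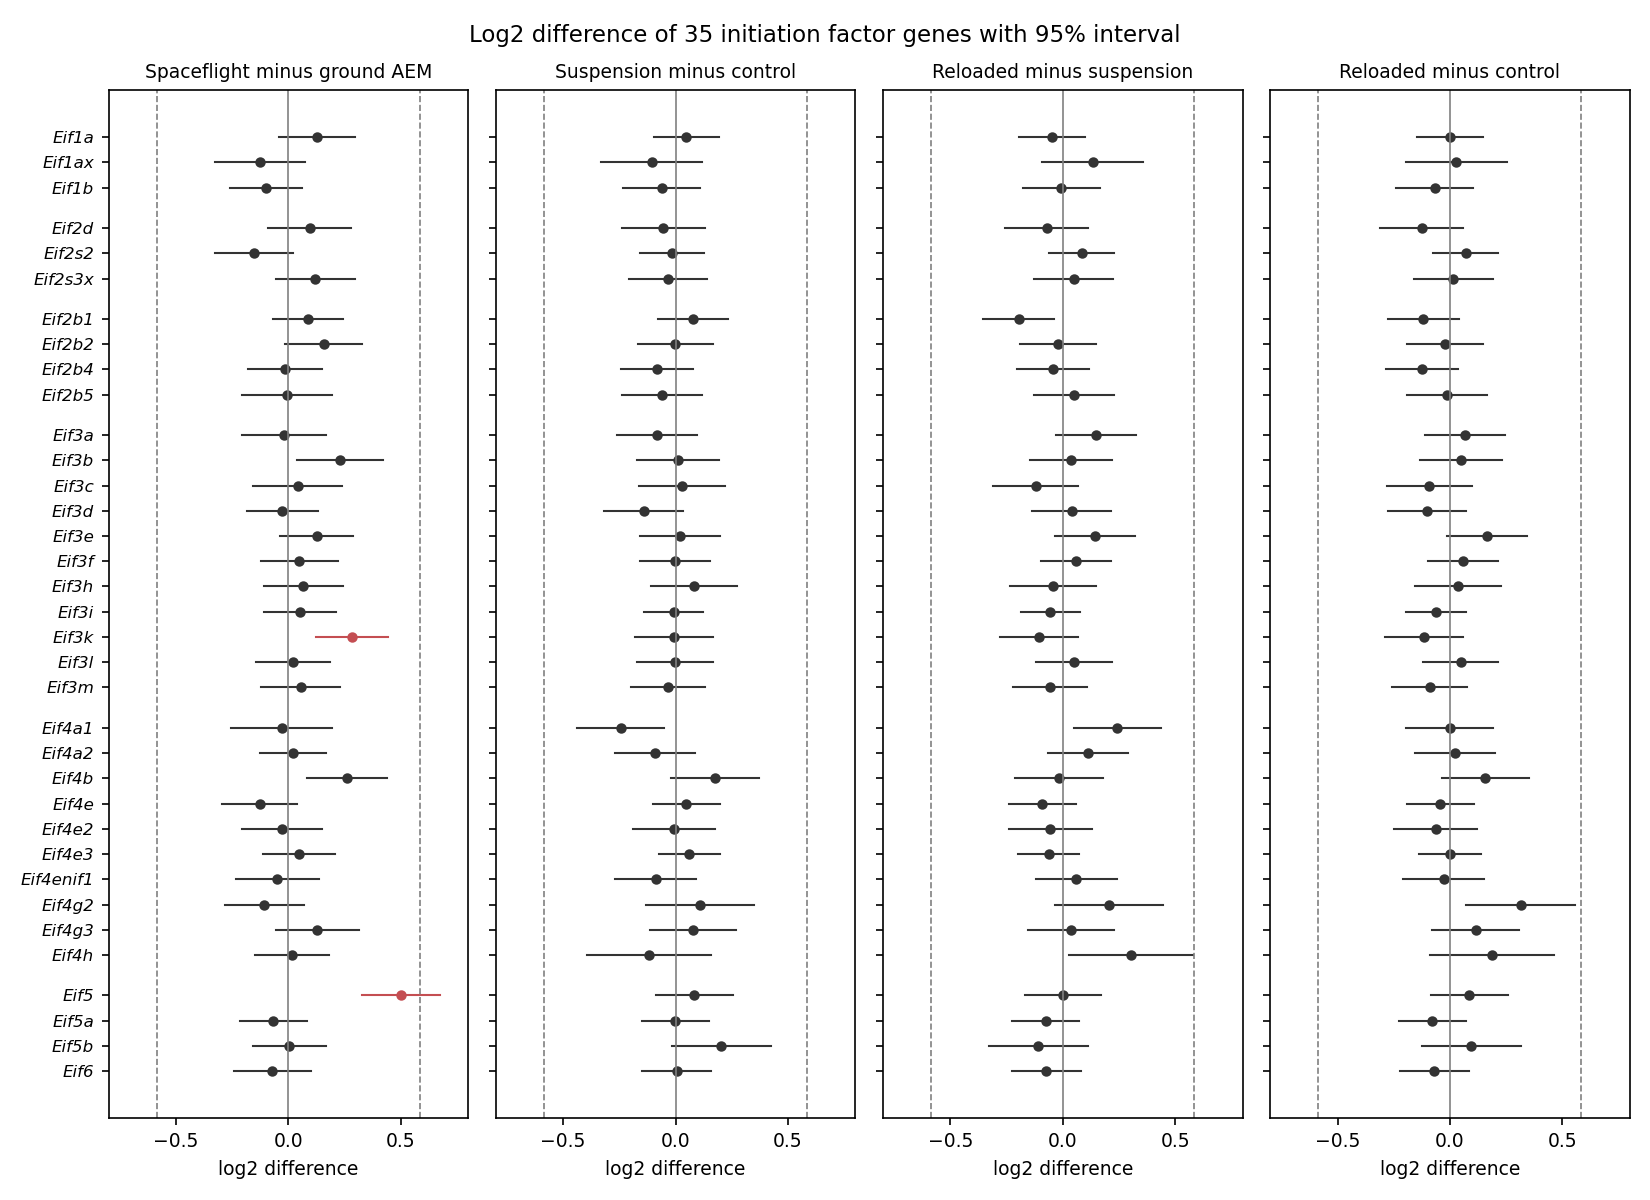
Log2 difference (x axis) of the 35 tested initiation factor genes (y axis, grouped by role) in each of the 4 comparisons of groups. Points are limma estimates, bars are 95% intervals, red marks called genes and dashed lines mark a 1.5-fold difference either way; Eif5 and Eif3k in spaceflight are the red points, and Eif5 is the one interval that reaches past a dashed line.

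Eif5 is the GTPase activator that acts on eIF2 in start codon selection. Its log2 signal was 10.62, 10.64, 10.35 and 10.55 in ground AEM replicates 1 to 4 and 11.05, 11.07, 11.02 and 11.03 in spaceflight replicates 8 to 11. The groups did not overlap, and the 4 spaceflight arrays lay between 11.02 and 11.07. The means were 11.04 ± 0.02 and 10.54 ± 0.13 (SD, n = 4 each). Eif5 rose by 0.50 ± 0.08 on the log2 scale (SE, 1.42-fold, 95% interval 0.33 to 0.67, limma adjusted p = 0.00272). The call held with each of the 8 arrays left out in turn (differences of 0.44 to 0.53). Adjusted p in limma was then 0.00358 to 0.0106. The call also held under 9 other settings, with differences of 0.37 to 0.52 and limma adjusted p of 0.000139 to 0.0171. The array has 4 probe sets for Eif5, and the value above is from the brightest. Fitted separately, the other 3 gave 0.36 (adjusted p = 0.0371 over the 13615 probe sets tested in limma), 0.37 (0.101) and 0.25 (0.122), all higher in spaceflight.

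The 250 bases before the Eif5 start are shown because Eif5 carries the main difference. They lie at chr12:111537851-111538100 (plus strand) in GRCm38.p6 and come from RefSeq, like all sequences here. They hold no match to the E-box, cAMP response element, YY1, FoxO or ATF4 motifs searched, so no letters are in capitals.
Eif5: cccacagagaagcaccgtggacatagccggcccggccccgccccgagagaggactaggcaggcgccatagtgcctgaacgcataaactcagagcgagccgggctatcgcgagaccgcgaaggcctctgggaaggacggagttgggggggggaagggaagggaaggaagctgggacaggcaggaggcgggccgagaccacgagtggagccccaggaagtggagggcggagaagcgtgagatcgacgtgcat

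**Figure D2:**
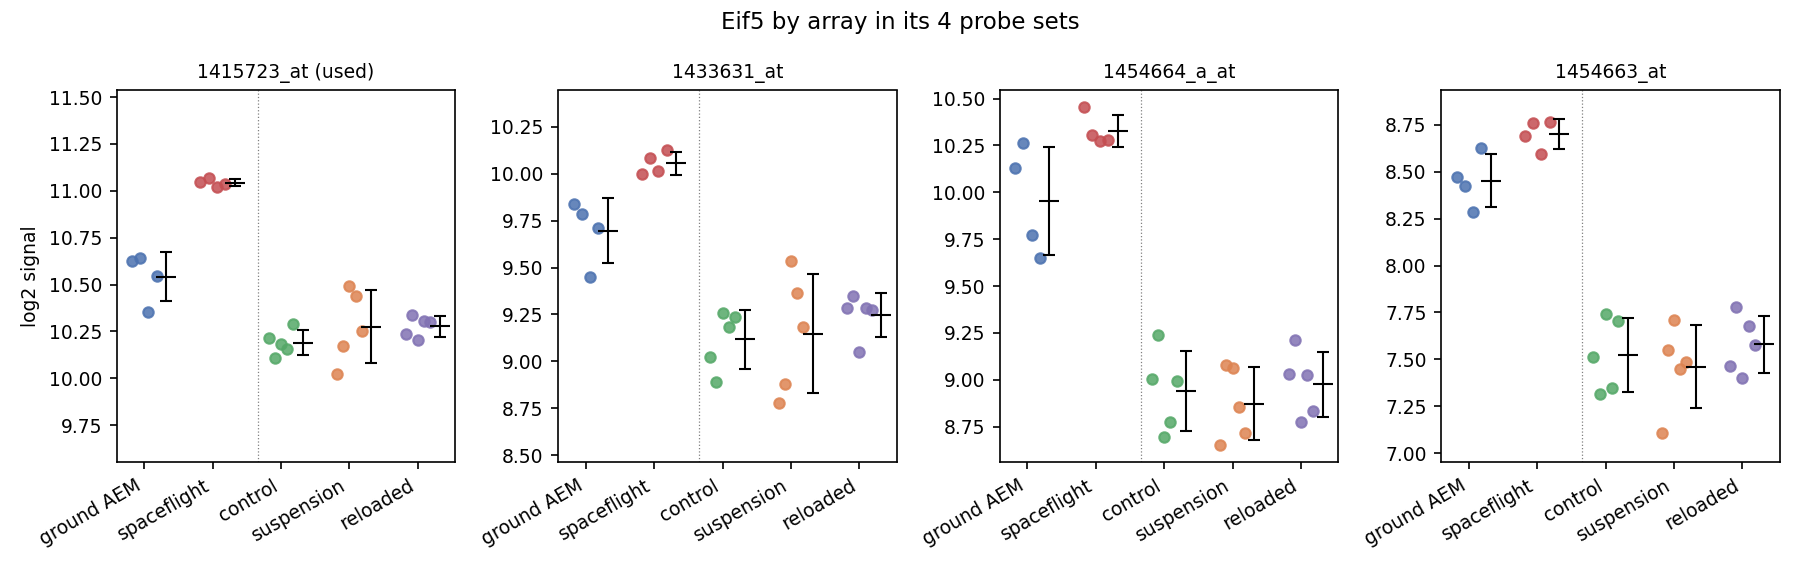
Log2 signal (y axis) of the 4 Eif5 probe sets in each array of the 5 groups (x axis), the leftmost panel being the probe set used. Coloured points are arrays, black bars are the group mean ± SD, and the dotted line separates the flight from the calf experiment; the y axes have equal length but different positions. In the leftmost panel the spaceflight arrays lie at 11.02 to 11.07, above all ground AEM arrays.

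Eif5 did not pass the test in the calf experiment. Its log2 signal was 10.22, 10.11, 10.18, 10.16 and 10.29 in control replicates 1, 2, 19, 21 and 22. In suspension replicates 8, 9, 11, 25 and 30 it was 10.02, 10.17, 10.49, 10.44 and 10.25. In reloaded replicates 14, 15, 16, 18 and 33 it was 10.24, 10.34, 10.20, 10.31 and 10.30. All 3 groups overlapped, and the suspension group was the widest. The differences were 0.08 (95% interval -0.09 to 0.25) for suspension against control, 0.00 (-0.17 to 0.17) for reloaded against suspension and 0.09 (-0.08 to 0.26) for reloaded against control. Without suspension replicates 8 and 9 the suspension difference was 0.20 (limma adjusted p = 0.418).

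Whether the flight effect differed from a calf effect was tested over all 23 arrays. These 2 differences share the spaceflight, ground AEM and control arrays. The experiments also differ in array spread, in the muscle taken and in the type of control. A difference of effects, here or below, cannot be told apart from these. Against the suspension effect, 0 of 35 members were called, where 1.27% of all tested genes were. At an unadjusted p under 0.05 there were 2 members, Eif3k and Eif5, beside 12.2% of all genes. The difference for Eif5 was 0.42 ± 0.12 (limma adjusted p = 0.0694). Against the effect of suspension plus reloading, 1 of 35 members was called (2.86%, against 2.74% of all genes), again Eif5, at 0.41 ± 0.12 (95% interval 0.18 to 0.65, limma adjusted p = 0.0493). This call was lost with 17 of the 23 arrays left out one at a time, and kept only without ground AEM replicate 1 or 2 or suspension replicate 8, 9, 11 or 25, over a range of 0.35 to 0.45 and adjusted p of 0.0208 to 0.137. With the mean of the 4 probe sets the difference was 0.29 (adjusted p = 0.23).

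The second called member, Eif3k, encodes a small non-core subunit of eIF3. Its log2 signal was 10.18, 10.17, 10.05 and 10.01 in ground AEM replicates 1 to 4 and 10.40, 10.35, 10.45 and 10.34 in spaceflight replicates 8 to 11. The groups did not overlap. Eif3k rose by 0.28 ± 0.07 (1.22-fold, 95% interval 0.12 to 0.44, limma adjusted p = 0.0426). This call was lost without ground AEM replicate 3 or 4 or any 1 of the 4 spaceflight replicates (adjusted p up to 0.116, differences of 0.25 to 0.31), and kept without ground AEM replicate 1 or 2. Array range as a covariate (adjusted p = 0.12), no filter (0.0559) and centred arrays (0.0507) also ended it. In the calf experiment Eif3k differed by -0.01 in suspension and -0.11 in reloaded against control, neither called. Its flight effect exceeded that of suspension plus reloading by 0.40 ± 0.11 (limma adjusted p = 0.0558).

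The 250 bases before the Eif3k start, at chr7:28981889-28982138 (minus strand) in GRCm38.p6, hold 1 E-box, in capitals, which begins 44 bases before the start.
Eif3k: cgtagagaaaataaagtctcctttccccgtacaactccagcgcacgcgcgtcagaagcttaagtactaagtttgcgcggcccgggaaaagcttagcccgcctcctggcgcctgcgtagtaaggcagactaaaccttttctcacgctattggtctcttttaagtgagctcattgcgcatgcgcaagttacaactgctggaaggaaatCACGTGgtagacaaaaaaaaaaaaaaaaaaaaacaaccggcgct

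Of the 11 eIF3 subunits among the members, 9 lay above 0 and 2 below in flight. Over all 35 tested members the counts were 21 and 14. The median log2 difference of the eIF3 subunits was 0.05, with a lowest value of -0.03 (Eif3d) and Eif3k highest. Eif3a, Eif3c and Eif3e each had another probe set of the opposite sign to the one used, and the split of signs was not tested. Eif3b, a core scaffold subunit that binds RNA, had log2 signals of 8.69, 8.53, 8.67 and 8.41 in ground AEM and 8.79, 8.66, 8.87 and 8.92 in spaceflight. The groups overlapped, and the difference of 0.23 ± 0.09 did not pass (limma adjusted p = 0.162). Eif3a, the largest subunit, differed by -0.02 ± 0.09, and Eif3f and Eif3h, which are paired subunits of the same module, by 0.05 ± 0.08 and 0.07 ± 0.08. In suspension the eIF3 subunits ran from -0.14 (Eif3d) to 0.08 (Eif3h), and in reloaded against suspension from -0.12 (Eif3c) to 0.15 (Eif3a).

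Eif3c, a core subunit, is named after its values were seen, because its 4 probe sets disagree. The one used differed by 0.04 in flight, and others by 0.14 and -0.03. The fourth gave 8.95, 9.19, 8.84 and 8.93 in ground AEM replicates 1 to 4 and 8.72, 8.47, 8.23 and 8.42 in spaceflight replicates 8 to 11. These groups did not overlap, and this probe set fell by 0.52 on the log2 scale (SE 0.11, limma adjusted p = 0.0142 over all probe sets tested). The 4 probe sets spanned 0.66, the widest range among the 19 members with several tested probe sets in flight. Only 6 of these 19 had the same sign in all their probe sets and 13 had mixed signs. Among the other probe sets of the members, 2 of 39 were called in flight (5.13%), this one and 1 of Eif5, beside 6.5% of all 13615 probe sets tested on their own.

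Among the eIF4 factors, 0 of 10 were called in any comparison of groups, and 5 lay above 0 and 5 below in flight. Eif4b, a cofactor of the eIF4A helicase and a target of S6 kinase, had log2 signals of 10.43, 10.15, 10.42 and 10.39 in ground AEM and 10.56, 10.65, 10.64 and 10.58 in spaceflight. The groups did not overlap, yet the difference of 0.26 ± 0.08 did not pass (limma adjusted p = 0.0887). With a variance trend and robust estimation it did (adjusted p = 0.0301). The other probe sets of Eif4b gave 0.11 and -0.13. Eif4b, Eif3k and Eif5 were the 3 members whose flight groups did not overlap, against 12.4% of all tested genes.

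The cap-binding protein Eif4e had log2 signals of 10.67, 10.46, 10.61 and 10.63 in ground AEM and 10.51, 10.50, 10.35 and 10.49 in spaceflight, which overlapped. It differed by -0.13 ± 0.08 (limma adjusted p = 0.392). The helicases Eif4a1 and Eif4a2 differed by -0.03 ± 0.10 and 0.02 ± 0.07 in flight. Eif4a2 had the smallest spread within groups of all members in that experiment (SD 0.03) and Eif4a1 the largest (0.17).

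In the calf experiment the values of the helicase Eif4a1 and of its cofactor Eif4h rest partly on suspension replicates 8 and 9. Eif4a1 was 9.91, 10.02, 10.27, 10.02 and 10.08 in control, 9.62, 9.60, 9.96, 10.01 and 9.88 in suspension replicates 8, 9, 11, 25 and 30, and 10.05, 10.12, 9.86, 10.12 and 10.14 in reloaded. Suspension replicates 8 and 9 were lowest, and the other 3 overlapped both neighbouring groups. The difference was -0.24 ± 0.09 in suspension (limma adjusted p = 0.388) and 0.24 ± 0.09 in reloaded against suspension (0.416), and neither passed. The other probe sets of Eif4a1 gave -0.09 and 0.06 in suspension, and 0.14 and 0.11 in reloaded against suspension.

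Eif4h, which stimulates the helicase, was 9.42 and 9.49 in suspension replicates 8 and 9 and 10.13 to 10.15 in the other 3. The control arrays lay between 9.82 and 10.12 and the reloaded arrays between 9.91 and 10.34. The suspension group was thus split, with its lower arrays below every control array and its upper arrays above them. The difference was -0.12 ± 0.13 in suspension and 0.30 ± 0.13 in reloaded against suspension (limma adjusted p = 0.488). Without suspension replicates 8 and 9, a choice made after seeing the data for single genes, these became 0.16 and 0.03, and those of Eif4a1 became -0.11 and 0.11. Among the members, Eif4h had the largest spread within groups in the calf experiment (SD 0.25). The other probe sets of Eif4h gave -0.01 and -0.11 in suspension, and 0.05 and 0.04 in reloaded against suspension.

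Eif4g2, a scaffold related to eIF4G that does not bind the cap-binding protein, had its highest mean after reloading among the calf groups. It was 10.96, 11.11, 10.77, 10.83 and 10.96 in control, 10.55, 10.99, 11.24, 11.04 and 11.36 in suspension, and 11.14, 11.06, 11.35, 11.36 and 11.29 in reloaded. The reloaded and control groups overlapped through control replicate 2. Reloaded exceeded control by 0.32 ± 0.12, which did not pass (95% interval 0.07 to 0.56, limma adjusted p = 0.501), and the other probe sets gave -0.03 and 0.11. In flight Eif4g2 differed by -0.11 ± 0.08. Its flight effect minus that of suspension plus reloading was the lowest of the 35 members at -0.42 ± 0.16 (95% interval -0.75 to -0.10), which limma did not call (adjusted p = 0.187, and 0.0419 with array weights). No member had groups that did not overlap in the calf experiment, where 2.04% of all tested genes did in suspension, 1.46% in reloaded against suspension and 2.64% in reloaded against control.

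The eIF2 members showed no call. Eif2s2, the beta subunit, had the lowest flight difference of the family. Its log2 signal was 11.44, 11.38, 11.18 and 11.24 in ground AEM and 11.21, 11.15, 11.08 and 11.20 in spaceflight. The groups overlapped, and the difference was -0.15 ± 0.08 (limma adjusted p = 0.323). Eif2s3x, the gamma subunit from the X chromosome, differed by 0.12 ± 0.08, and Eif2d, a factor that can deliver tRNA without GTP, by 0.09 ± 0.09. The other probe sets of Eif2s3x gave 0.07 and -0.36, the latter not called (limma adjusted p = 0.0964 over all probe sets tested). Eif2s3y, the Y-linked copy of the gamma subunit, is the member that did not pass the filter. It lay between 2.77 and 3.04 on all 23 arrays, below the log2 threshold of 5.83, in these female mice.

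The 4 members from eIF2B, the exchange factor that stress signalling blocks, lay between -0.01 (Eif2b4) and 0.16 (Eif2b2) in flight. Its subunit Eif2b3 is not among the members. Eif2b5, the catalytic subunit, differed by -0.01 ± 0.09 in flight, -0.06 ± 0.09 in suspension and 0.05 ± 0.09 in reloaded against suspension. Eif2b1 had the lowest difference of the family in reloaded against suspension. Its log2 signal was 8.78, 8.88, 8.77, 8.73 and 8.56 in suspension and 8.60, 8.50, 8.40, 8.66 and 8.57 in reloaded, which overlapped. The difference was -0.20 ± 0.08 (limma adjusted p = 0.42).

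Of the remaining members, Eif1ax, which scans for the start codon with eIF1, differed by -0.13 ± 0.09 in flight, and suspension replicate 8 stood low at 8.09 against 8.64 to 8.80 in the rest of its group. Eif5b had the highest suspension difference of the family. Its log2 signal was 8.03, 8.21, 7.98, 7.62 and 8.06 in control and 8.19, 8.40, 8.18, 8.07 and 8.08 in suspension, which overlapped, and the difference was 0.20 ± 0.11 (limma adjusted p = 0.615). Eif5a, the hypusine-bearing factor that helps elongation, and Eif6, which keeps the ribosomal subunits apart, differed by -0.07 ± 0.07 and -0.07 ± 0.08 in flight and by -0.00 ± 0.07 and 0.00 ± 0.07 in suspension.

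Across the family the differences were centred near 0. The median log2 difference of the 35 members was 0.02 in flight against -0.01 over all tested genes, -0.00 against 0.00 in suspension, -0.01 against -0.02 in reloaded against suspension, and -0.00 against -0.02 in reloaded against control. The median size without sign was 0.07 for members and 0.10 for all genes in flight, 0.06 and 0.07 in suspension, 0.06 and 0.08 in reloaded against suspension, and 0.07 and 0.06 in reloaded against control. The standard error of a member's difference had a median of 0.08 in the flight and in the calf experiment. In flight, 34 of 35 intervals lay within 1.5-fold either way, Eif5 being the other one. In each of the 3 calf comparisons all 35 did.

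**Figure D3:**
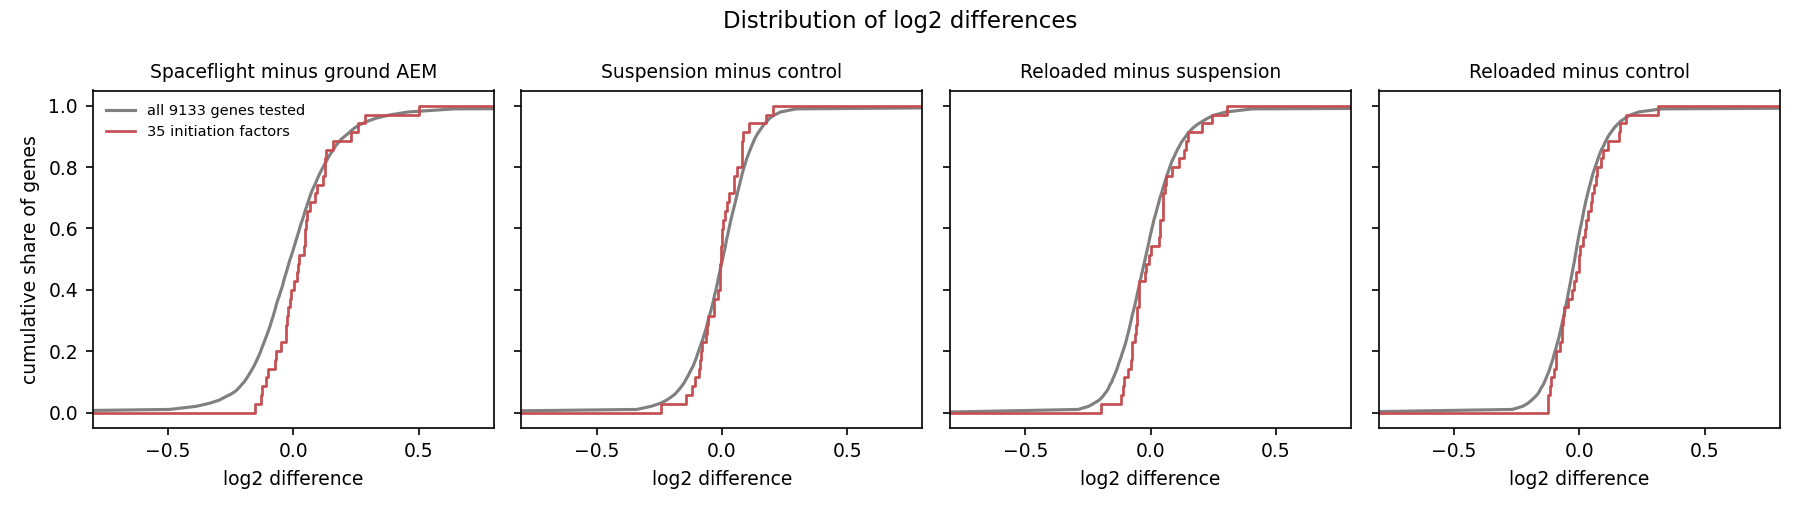
Cumulative share of genes (y axis) against the log2 difference (x axis, shown from -0.8 to 0.8) in the 4 comparisons of groups. The grey line is all 9133 tested genes and the red step line the 35 members; member medians are 0.02 in flight and within 0.01 of 0 in the calf comparisons, and in flight the lowest member lies at -0.15 while the grey line reaches further down.

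Some arrays stood apart across the family. On suspension replicate 8, 29 of 35 members lay below the mean of the other suspension arrays, with a median of -0.16. On reloaded replicate 16, 29 of 35 lay below the rest of their group (median -0.13), and on reloaded replicate 18, 29 lay above it (median 0.08). On suspension replicates 11 and 25, 28 of 35 lay above the rest of their group (medians 0.12 and 0.11). These counts were not made over all tested genes, so they are not shown to be particular to the family. The spread of the whole array was 2.21 on suspension replicate 8 and 2.45 and 2.46 on suspension replicates 11 and 25. It was 2.32 and 2.41 on reloaded replicates 16 and 18. Whether the members follow the whole array was not tested. The median SD within groups was 0.09 for members and 0.13 for all tested genes in the flight experiment, and 0.13 and 0.14 in the calf experiment.

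**Figure D4:**
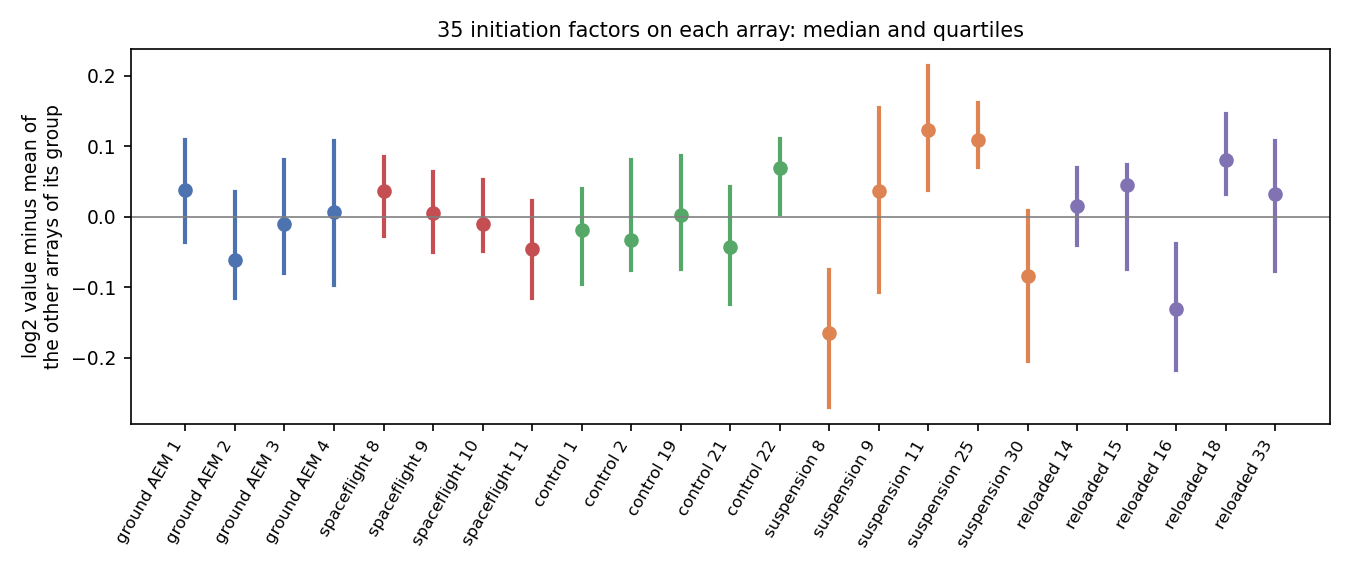
Deviation of the 35 members on each array (x axis, group and replicate number) from the mean of the other arrays of the same group (y axis, log2). Points are medians and bars run from the 25th to the 75th percentile of the members; suspension replicate 8 and reloaded replicate 16 are lowest, at -0.16 and -0.13.

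Some markers of other cell types differed between the flight groups, and some between suspension and control. Of 7 tested adipocyte markers, 4 were higher in spaceflight (Adipoq, Retn, Lipe and Cidec). The log2 of the summed signal of all 7 was 13.48 to 13.65 in ground AEM and 13.65 to 13.85 in spaceflight. Of 6 fibroblast and matrix markers, 3 collagen genes were lower (sums over all 6 of 12.09 to 12.73 and 11.95 to 12.24). Of 6 endothelial markers Kdr was lower, and the log2 sums over all 6 markers were 9.86 to 9.90 in ground AEM and 9.77 to 9.81 in spaceflight. The red cell gene Alas2 was lower too, and the macrophage, Schwann cell, tendon and skin lists had 0 calls. The muscle fibre markers had 0 calls and sums of 16.21 to 16.30 and 16.21 to 16.26. In suspension, Mbp of the 3 Schwann cell markers was higher and the tendon gene Chad lower. The adipocyte and the fibroblast and matrix lists had 0 calls in suspension, yet their medians were similar to those in flight. The median log2 difference was 0.63 in flight and 0.53 in suspension for adipocyte markers. It was -0.39 and -0.46 for fibroblast and matrix markers. Over all 3 Schwann cell markers the log2 sums were 10.13 to 10.56 in control and 11.37 to 12.12 in suspension. The log2 sums over all 4 tendon markers were 10.12 to 10.43 in control and 9.43 to 10.14 in suspension. The part of these cell types in the Eif5 and Eif3k differences was not tested.

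Other translation genes, from regulators of initiation to elongation and termination factors and the ATF4 pathway, were read from lists. The lists held 58 genes, of which 51 matched and 48 were tested. In flight 4 were higher and 1 lower, and in the calf comparisons limma called 0. The 5 calls are 10.4% of the 48, beside 5.64% of all tested genes, and the 4 higher are 8.33%, beside 3.18%. The lists were chosen with earlier results of these data known, so these shares are a description and not a test. The median flight difference of the 48 genes was 0.07. Pdcd4, which sequesters the helicase eIF4A, was 7.24, 7.10, 7.06 and 7.18 in ground AEM and 7.78, 7.81, 7.77 and 7.90 in spaceflight, with no overlap. It rose by 0.67 ± 0.07 (limma adjusted p = 0.000262), and its flight effect exceeded that of suspension plus reloading by 0.69 ± 0.16 (adjusted p = 0.0163). The difference from suspension, 0.56 ± 0.16, was not called (adjusted p = 0.0829). Eif4ebp1, the repressor that binds eIF4E, was 9.33, 9.46, 9.30 and 9.24 in ground AEM and 9.95, 9.80, 9.82 and 9.84 in spaceflight. These did not overlap either, and it rose by 0.52 ± 0.08 (adjusted p = 0.00155), with 0.31 in its other probe set (adjusted p = 0.0517). Its relative Eif4ebp2 differed by 0.05 ± 0.11, although its other probe set fell by 0.31 (adjusted p = 0.0455).

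Ddit4, an inhibitor of mTORC1, was 7.39, 10.68, 7.80 and 7.57 in ground AEM and 11.23, 11.33, 10.79 and 11.37 in spaceflight. Ground AEM replicate 2 stood close to the spaceflight arrays, and the groups did not overlap. It rose by 2.82 ± 0.54 (limma adjusted p = 0.00884), which a variance trend with robust estimation did not call (adjusted p = 0.102). Its flight effect exceeded that of suspension by 2.54 ± 0.63 (adjusted p = 0.0384). That call was lost without control replicate 2 or 19, suspension replicate 8, 9, 11 or 30, ground AEM replicate 1, 3 or 4, or spaceflight replicate 8, 9 or 11 (differences of 2.21 to 3.31 and adjusted p up to 0.104 over the arrays left out). Against suspension plus reloading the difference was 2.96 ± 0.63 (adjusted p = 0.00757), and that call was kept with each of the 23 arrays left out (2.64 to 3.74, adjusted p up to 0.0256). Rps6, the ribosomal protein that S6 kinase phosphorylates, was 7.37, 7.12, 7.06 and 7.20 in ground AEM and 7.48, 7.45, 7.62 and 7.47 in spaceflight, without overlap. It rose by 0.32 ± 0.08 (adjusted p = 0.0443), in the only probe set of Rps6 that was tested. This call was kept only without ground AEM replicate 1 and lost without each of the other 7 flight arrays (adjusted p up to 0.127). Bzw2, a protein that mimics part of eIF5 and competes with it for eIF2, fell by 0.37 on the log2 scale (SE 0.08, adjusted p = 0.0134), from 8.32 to 8.46 in ground AEM to 7.95 to 8.17 in spaceflight, with no overlap. Its other probe set gave -0.22 (adjusted p = 0.255).

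**Figure D5:**
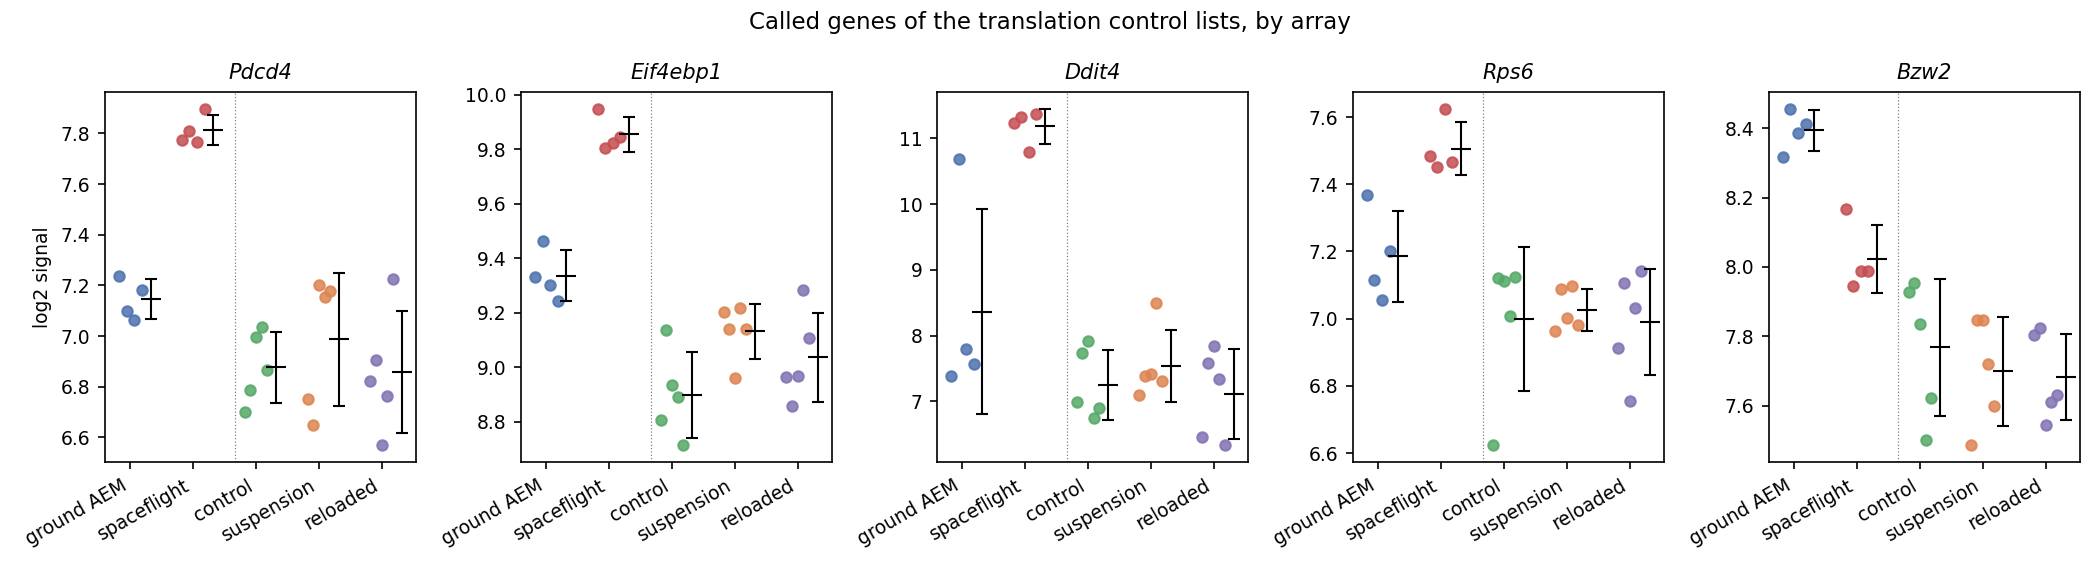
Log2 signal (y axis) by array in the 5 groups (x axis) for the 5 called genes of the translation control lists. Coloured points are arrays and black bars the group mean ± SD; Pdcd4, Eif4ebp1, Ddit4 and Rps6 are higher and Bzw2 lower in spaceflight than in ground AEM, and 1 ground AEM array of Ddit4 lies at 10.68.

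Other parts of the machinery showed 0 calls. Among 8 elongation factors the flight differences ran from -0.12 to 0.17, with Eef1a1 at 0.17 ± 0.09, the muscle form Eef1a2 at -0.12 ± 0.08 and Eef2 at -0.04 ± 0.09. The 5 eIF2 kinases and phosphatase subunits ran from -0.15 to 0.20 (Eif2ak3 at 0.10 ± 0.08), the 6 genes of the ATF4 pathway from -0.23 to 0.18, and the 4 termination and recycling factors from -0.02 to 0.11. Mtor itself differed by 0.15 ± 0.08 (limma adjusted p = 0.306).

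Promoter windows of 300 bases, from 250 before to 50 after the start, were found in RefSeq for 29 of the 36 members. The windows were searched on both strands for CACGTG (the E-box bound by Myc and its relatives), TGACGTCA (the cAMP response element), AAGATGGC (the YY1 motif), GTAAACA (FoxO) and TGATGNAAT (the ATF4 and C/EBP composite), each counted on its own where motifs overlap. The E-box was in 8 of 29 members (27.6%) and in 8.09% of 27025 genes. The YY1 motif was in 5 (17.2%, against 3.19%), namely Eif2s3x, Eif2s3y, Eif3f, Eif4a1 and Eif4e. The FoxO motif was in 1 (3.45%, against 4.05%), and the cAMP response element and the ATF4 composite were in 0 (against 2.03% and 1.08%). A match is a run of letters and not a shown binding site.

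The E-box windows of the members other than Eif3k are printed below with the motif in capitals, each read 5′ to 3′ on the strand of its gene, because this motif was the most frequent one in the family. They lie at chr9:120492573-120492596 (plus strand), chr19:60790657-60790680 (minus strand), chr7:108934338-108934361 (plus strand), chr11:69672598-69672621 (minus strand), chr3:138527195-138527218 (plus strand), chr5:134639491-134639514 (minus strand) and chr11:69921446-69921469 (minus strand), in the order given. Eif4e and Eif5a hold a further E-box each.
Eif1b: gcggacggtCACGTGgcggcggcg
Eif3a: cgagggaatCACGTGgttccttcc
Eif3f: gatatgattCACGTGgtataaatt
Eif4a1: tcgcctccgCACGTGtaaaggtgc
Eif4e: cacgtccgtCACGTGggcaggagc
Eif4h: ccgccgcacCACGTGggccgcaga
Eif5a: gggcggggtCACGTGtgtgcgtca

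In flight the 8 members with one had a median log2 difference of -0.02, from -0.13 (Eif4e) to 0.28 (Eif3k), and the 20 tested members whose window lacks it had a median of 0.03, from -0.15 (Eif2s2) to 0.50 (Eif5). In reloaded against suspension the medians were 0.03 and 0.02.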

How the data were processed

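The authors deposited 1 table of log2 values per probe set for 23 arrays. RMA and MAS5 are named in the submitters' processing notes, and which of them made the deposited log2 values is not given in the sources used here, nor are versions. The values were not normalized further. Of 22690 probe sets, 64 controls were left out, and 20380 of the rest had 1 gene symbol in the platform annotation. Each gene was represented by its brightest probe set over the 23 arrays. For 5 members this is a set ending in _s_at and for 3 in _x_at, endings Affymetrix gives to probes that can match related transcripts. Genes above log2 5.83 (40th percentile of all values) on 4 or more arrays were tested, 9133 in all.

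Groups came from the sample titles. The 8 flight arrays and the 15 calf arrays were fitted separately with limma 3.58.1 (lmFit, eBayes, two-sided) in R 4.3.3, and differences between effects over all 23 arrays. The scripts were tested on simulated data. The members and lists were chosen with earlier results of these data known. Genes named are called members and list genes, fixed members, and the highest and lowest member of each comparison; other members are named where they end a role's range or have several discordant probe sets, and were chosen after their values were seen. Alternatives were other filters, normalizations, probe sets, tests and arrays left out. Precision is limited by the number of arrays. Figures were drawn with matplotlib 3.10.9.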

Additional observations from a re-analysis of the deposited data

Results flagged for a closer look

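Among the 20 named members, 7 of 100 groups held an array far from the rest, where chance gives about 1 in 20. In the calf experiment these were Eif1ax on suspension replicate 8 (8.09), Eif2b5 on control replicate 22 (8.50) and on reloaded replicate 16 (8.42), and Eif2s2 on control replicate 19 (10.84). In the flight experiment they were Eif3f on spaceflight replicate 8 (11.24), Eif4b on ground AEM replicate 2 (10.15) and Eif4e on spaceflight replicate 10 (10.35). The effect on Eif5 differed between flight and suspension plus reloading by 0.41 on the log2 scale in limma (adjusted p = 0.0493), and the cause was not tested.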

How the results depend on the processing

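The count of members called in flight went from 2 to 1, leaving Eif5, at an adjusted p under 0.01, with array range as a covariate, with arrays centred on their median and with no filter, and was 1 to 2 with single arrays left out. It was 3 (Eif3k, Eif4b and Eif5) with a variance trend and robust estimation. The count for flight minus suspension plus reloading went from 1 to 0 at an adjusted p under 0.01, with centred arrays and with no filter. With the mean of probe sets Eif5 also lost this call (0.29, limma adjusted p = 0.23). It was 2 (Eif3k and Eif5) with a variance trend, with the filter at the 60th percentile and with quantile normalization, 3 with array weights (Eif4g2 as well), and 0 to 2 with single arrays left out. The count for flight minus suspension went from 0 to 1 (Eif5) with a variance trend and with quantile normalization, to 2 (Eif4b and Eif5) with the flight groups exchanged, and was 0 to 1 with single arrays left out. The counts of the 3 calf comparisons were 0 under every alternative run. The family medians lay between -0.04 and 0.08 over all comparisons and alternatives.

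Of 4895 alternatives of named genes, 4813 kept their side of the threshold, 66 lost a call, 15 gained one and 1 turned, Eif4ebp2 in flight at -0.31 in its other probe set. The first count includes 336 values that were never called and changed sign, the largest of them 0.32 in the main setting. The causes were not tested. No paired analysis was possible because the groups compared share no replicate numbers. Signal near background limits only Eif2s3y among the members.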
